A study of Mus musculus with 26 samples.

Results

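The potassium channel genes of the mouse brain were described in nuclear and cytoplasmic RNA. They were taken as the protein-coding genes whose symbol starts with Kcn followed by subfamily letters and a number, with Kcnj10, Kcnj13 and Kcnj8 left out. This rule found 90 genes in 20 subfamilies among the 27502 rows of the deposited count table, and it used symbols alone, not measured values. Of these genes, 63 had enough counts to be tested between sorted nuclei. The other 27 had group means of at most 8.20 CPM (the count scaled to a common library total) in all 7 groups, and 3 of them, Kcna7, Kcne1 and Kcnk16, had 0 counts in every library.

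Potassium channels let potassium leave the cell and so set the resting potential, end action potentials and shape firing. Voltage-gated channels open on depolarization, calcium- and sodium-activated channels follow ions inside the cell, inward rectifiers hold the membrane near the potassium equilibrium, and two-pore-domain channels carry background leak. Pore-forming subunits often assemble with auxiliary subunits, some in the membrane and some in the cytosol, that change their traffic and gating. In glia the same gene families take up and redistribute the potassium that firing neurons release.

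RNA was sequenced from whole brain of mice aged 6 to 12 weeks in 26 libraries. All mice carried EGFP fused to the ribosomal protein Rpl10a, under Snap25 in the neuron line, Aldh1l1 in the astrocyte line or Cnp in the oligodendrocyte line. From each line, 4 libraries were of sorted nuclei and 4 of presort nuclei, which were collected before the sort and sequenced at low coverage. The transgenes, on B6.FVB, were Tg(Snap25-EGfp/Rpl10a)JD362Htz, Tg(Aldh1L1-EGfp/Rpl10a)JD130Htz and Tg(Cnp-EGfp/Rpl10a)JD368Htz, and each group of 4 held 2 females and 2 males. The remaining 2 libraries were of cytoplasm, replicate 1 and replicate 2, from mice of the astrocyte line and of the oligodendrocyte line. A promoter is active in every cell type that uses it, so a sorted group stands for the cells in which that driver was on, and each library is a bulk of many nuclei. In bulk RNA, fewer nuclei of a type and less RNA per nucleus cannot be told apart.

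Some libraries stood apart. Total counts were 134357 to 4461568 per library. Sorted astrocyte replicate 30 was the shallowest, and presort astrocyte replicate 29 held 3274488 counts, against at most 313720 in the other presort libraries. Sorted oligodendrocyte replicate 36 detected 27 of the 90 potassium channel genes, against up to 78 in its group. The 2 cytoplasmic libraries differed from each other by several fold for many genes. Each driver gene was highest among sorted nuclei in its own group, and 8 astrocyte markers summed to 537 to 866 CPM in sorted neuron nuclei, 19872 to 23335 CPM in sorted astrocyte nuclei and 250.2 to 1474 CPM in sorted oligodendrocyte nuclei. The GFP row did not follow this order, with 0 to 52.9 CPM in sorted oligodendrocyte nuclei and 57.5 to 96.2 CPM in presort nuclei of that line.

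Summed over all 90 genes, potassium channel RNA made up 7047 ± 1567 CPM in sorted neuron nuclei, 3354 ± 368 CPM in sorted astrocyte nuclei and 2663 ± 666 CPM in sorted oligodendrocyte nuclei (SD, n = 4 each). Every sorted neuron library, from 5777 to 9321 CPM, lay above every sorted glial library, the highest of which reached 3676 CPM. The sums and the shares below leave out Kcnj10, Kcnj13 and Kcnj8, so they are not totals over all potassium channel genes. The makeup of the sum differed by cell type. In sorted neuron nuclei it was spread over inward rectifiers (Kcnj, 16.1 ± 1.25%), Kv3 channels (Kcnc, 13.7 ± 6.27%), Kv4 channels (Kcnd, 11.9 ± 0.438%), Kv7 channels (Kcnq, 11.1 ± 1.42%) and Kv1 channels (Kcna, 10.5 ± 3.11%). In sorted astrocyte nuclei, inward rectifiers took 24.7 ± 3.52% and small-conductance calcium-activated channels (Kcnn) took 17.4 ± 2.80%. In sorted oligodendrocyte nuclei, Kv1 channels alone took 52.5 ± 5.99%. In cytoplasm the cytosolic auxiliary subunits had larger mean shares, with Kcnab at 14.6 ± 2.46% and Kcnip at 12.3 ± 1.63% (SD, n = 2). Mean shares in the 6 nuclear groups were 1.14 to 2.51% for Kcnab and 2.90 to 9.82% for Kcnip. The Kcnip share of sorted astrocyte libraries, 6.84 to 11.5%, overlapped that of cytoplasm, 11.2 to 13.5%.

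**Figure D1:**
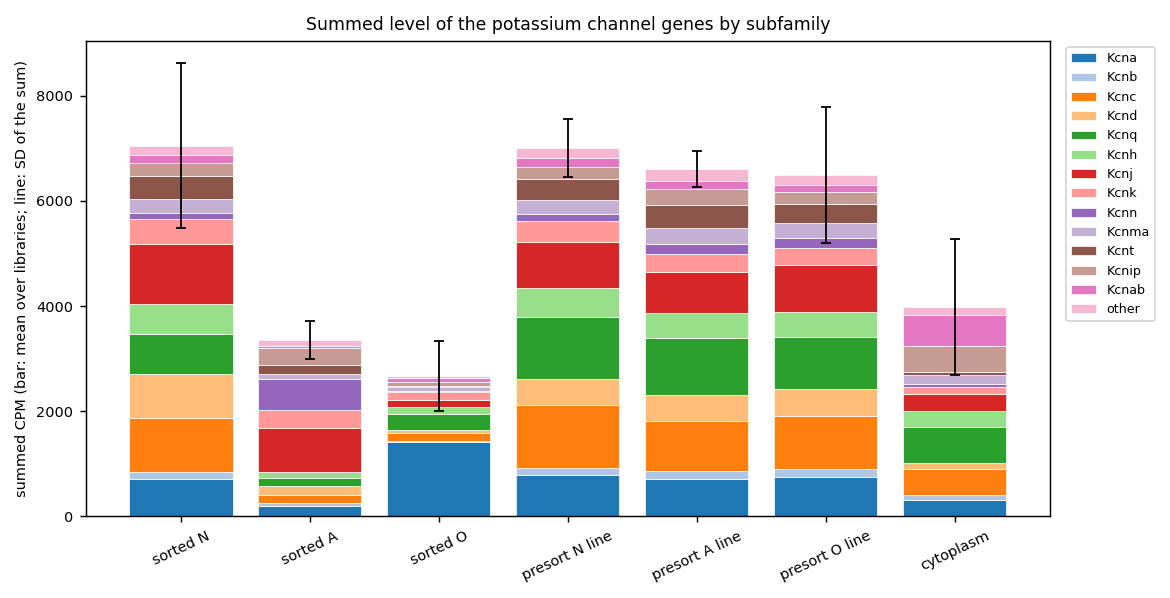
Stacked bars give the mean summed CPM (linear axis) of the potassium channel genes by subfamily in 3 sorted (N neuron, A astrocyte, O oligodendrocyte), 3 presort and 1 cytoplasmic group, and black lines give the SD of the sum over libraries. The sorted neuron bar reaches 7047 CPM, and Kcna fills 52.5% of the sorted oligodendrocyte sum.

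The study asks how nuclear RNA differs between the main cell types of the brain. Counts were compared with edgeR's quasi-likelihood test, and a gene passed when its Benjamini-Hochberg adjusted p over all genes tested was under 0.05. Between sorted neuron and sorted astrocyte nuclei, 30 of 63 potassium channel genes were higher in neuron nuclei and 6 were lower, beside 8.02% higher and 11.4% lower among all 13029 genes tested. Their median log2 fold change was 1.97, against 0.05 over all genes. Between sorted neuron and sorted oligodendrocyte nuclei, 35 of 63 were higher and 4 lower, beside 10.7% and 12.4% of all genes, with a median of 2.20 against 0.16. Between sorted astrocyte and sorted oligodendrocyte nuclei, 12 were higher and 5 lower, beside 9.62% and 7.49% of all genes, with a median of 0.18 against 0.11.

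The number of genes that passed rested partly on 1 library. Without sorted oligodendrocyte replicate 36, the genes lower in neuron than in astrocyte nuclei came to 11, those lower in neuron than in oligodendrocyte nuclei to 7, and those lower in astrocyte than in oligodendrocyte nuclei to 11. When libraries of the fit were left out 1 at a time, 25 of 36 calls in neuron against astrocyte, 30 of 39 in neuron against oligodendrocyte and 16 of 17 in astrocyte against oligodendrocyte nuclei passed in every such fit in which the gene was tested. In the females alone, which include replicates 30 and 36, 0 genes passed in neuron nuclei against either glial type.

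Enriched in a type here means that a gene passed with a log2 fold change over 1 against both other sorted types. By this rule 25 of 63 potassium channel genes were enriched in neuron nuclei, beside 5.21% of all genes. Another 5 were enriched in astrocyte nuclei, beside 5.82% of all genes: Kcnj16, Kcne2, Kcne1l, Kcnn3 and Kcnn2. The 4 enriched in oligodendrocyte nuclei, beside 5.36% of all genes, were Kcnk13, Kcna6, Kcnq3 and Kcna1. Without sorted oligodendrocyte replicate 36 the astrocyte count was 8. Sorted astrocyte nuclei also held markers of other cells. Oligodendrocyte precursor markers summed to 376 to 737 CPM there, against at most 125 CPM in sorted neuron and 134 CPM in sorted oligodendrocyte nuclei. Mural cell markers summed to 253 to 390 CPM, against at most 24.9 and 129 CPM, with Cspg4 in both lists. The part of such cells in the astrocyte-enriched genes was not tested. In all, 47 potassium channel genes passed in at least 1 of the 3 sorted comparisons, beside 34.7% of all genes. The 16 tested genes that did not included Kcna2, Kcna3, Kcnab2, Kcnab3, Kcnd1, Kcng1, Kcng4, Kcnh2, Kcnh3, Kcnip1, Kcnip2, Kcnip4, Kcnn1, Kcns2 and Kcnu1.

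**Figure D2:**
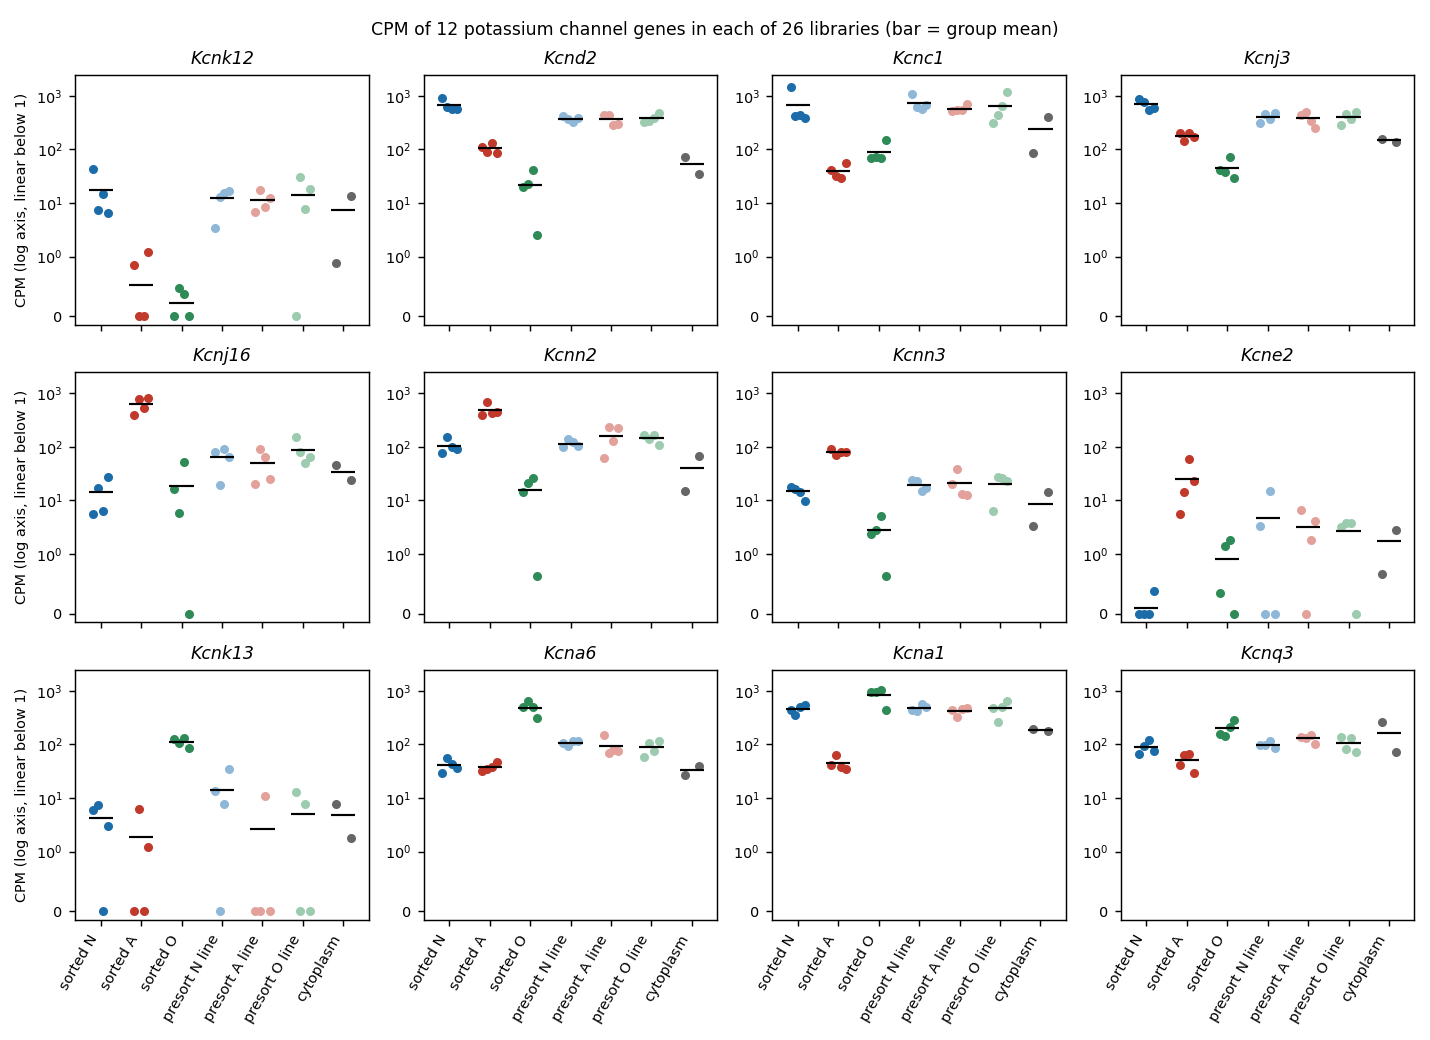
Each point is the CPM of a gene in 1 library (vertical axis logarithmic above 1 and linear below), bars are group means, and the 7 groups run from sorted through presort to cytoplasm. The top row holds neuron-enriched genes, the middle row astrocyte-enriched genes and the bottom row oligodendrocyte-enriched genes, with Kcnk13 at most 7.52 CPM in sorted neuron and 6.25 CPM in sorted astrocyte nuclei and at 87.4 to 131 CPM in sorted oligodendrocyte nuclei.

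Among the Kv1 genes, 5 of 8 were tested, and Kcna1 and Kcna6 were the oligodendrocyte-enriched ones. Kcna1 encodes Kv1.1, a low-threshold delayed rectifier that in neurons sits beside the nodes of Ranvier and limits repetitive firing. It had 448, 358, 502 and 535 CPM in sorted neuron nuclei, 40.5, 64.8, 37.2 and 34.6 CPM in sorted astrocyte nuclei and 957, 934, 1033 and 448 CPM in sorted oligodendrocyte nuclei. The lowest oligodendrocyte value, in replicate 36, overlapped the neuron libraries, while both groups lay above all astrocyte libraries. The log2 fold change was -1.23 ± 0.32 for neuron over oligodendrocyte nuclei (SE; edgeR adjusted p = 0.0109) and -4.41 ± 0.37 for astrocyte over oligodendrocyte nuclei (edgeR adjusted p = 8.73e-07). For neuron over astrocyte nuclei it was 3.19 ± 0.35 (edgeR adjusted p = 1.41e-05). The step between neuron and oligodendrocyte nuclei did not pass without sorted neuron replicate 4 (log2 fold change -1.08, edgeR adjusted p = 0.056) or with library sizes alone as the scaling (-0.87, edgeR adjusted p = 0.0838).

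Kcna6, which encodes Kv1.6, another pore-forming subunit of the same family, showed the larger step. It had 29.4, 56.4, 43.6 and 36.2 CPM in sorted neuron nuclei, 31.97, 35.1, 37.2 and 47.2 CPM in sorted astrocyte nuclei and 499.9, 636, 495 and 315 CPM in sorted oligodendrocyte nuclei. No oligodendrocyte library overlapped the others. The log2 fold change was -3.95 ± 0.38 for neuron over oligodendrocyte nuclei (edgeR adjusted p = 2.36e-06) and -3.88 ± 0.38 for astrocyte over oligodendrocyte nuclei (edgeR adjusted p = 3.57e-06). Of its exonic bases, 39.6% overlap the antisense gene Gm26673. The library kit keeps no strand, so their reads cannot be told apart. Both Kcna1 and Kcna6 lie on chromosome 6 (GRCm38), at 126640397 to 126646384 and at 126708329 to 126740674, both on the minus strand.

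The other Kv1 genes did not share this pattern. Kcna4, the A-type Kv1.4, averaged 45.0 ± 11.1 CPM in sorted neuron nuclei, against 5.0 ± 2.0 CPM in sorted astrocyte and 3.7 ± 2.8 CPM in sorted oligodendrocyte nuclei (SD, n = 4 each), and passed against both. Kcna2 encodes Kv1.2, the partner of Kv1.1 beside the node. It averaged 146 ± 25.9 CPM in sorted neuron, 113 ± 12.9 CPM in sorted astrocyte and 68.8 ± 23.3 CPM in sorted oligodendrocyte nuclei. Kcna2 passed in none of the 3 comparisons. Kcna3 passed in none of them either, at 11.7, 2.4 and 5.5 CPM on average in the same order of types.

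Several genes of the Kv2 to Kv4 families were higher in neuron nuclei. Kcnb2, a Kv2 delayed rectifier, passed against astrocyte nuclei (log2 fold change 3.23 ± 0.81). Of the Kv3 genes, whose channels let neurons fire at high rates, Kcnc1, Kcnc2 and Kcnc4 were higher in neuron than in oligodendrocyte nuclei, and Kcnc1 and Kcnc2 were higher in neuron than in astrocyte nuclei too. The Kcnc2 calls were lost in 6 leave-one-out fits against astrocyte and 3 against oligodendrocyte nuclei, and the Kcnc4 call in 6. Kcnc4 had 39.7 ± 19.5 CPM in sorted neuron nuclei and 66.3 ± 31.3 CPM in sorted astrocyte nuclei, a difference that did not pass.

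Kcnc1, which encodes Kv3.1, had 1458, 419.6, 441 and 379 CPM in sorted neuron nuclei, 40.9, 32.4, 29.8 and 56.8 CPM in sorted astrocyte nuclei and 68.2, 72.5, 68.9 and 152 CPM in sorted oligodendrocyte nuclei. Neuron libraries lay above all glial ones, and sorted neuron replicate 2 lay over 3 times above the other neuron libraries. Without that replicate the log2 fold change was 3.15 against astrocyte nuclei and 1.62 against oligodendrocyte nuclei, beside 3.88 and 2.40 with it. Kcnc1 is abundant in cerebellar granule cells, and 6 granule cell markers summed to 6152 to 11534 CPM in sorted neuron nuclei, against 305 to 364.7 CPM in sorted astrocyte and 125 to 325 CPM in sorted oligodendrocyte nuclei. None of the 6 markers was at 0 in any of these groups, and the part of granule cells in the Kcnc1 result was not tested.

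Kcnd2 encodes Kv4.2, the A-type channel of dendrites, on chromosome 6 at 21215503 to 21729805. It had 897, 621, 563 and 561 CPM in sorted neuron nuclei, against 112, 88.6, 134 and 86.1 CPM in sorted astrocyte nuclei and 20.1, 22.9, 40.6 and 2.50 CPM in sorted oligodendrocyte nuclei. The 3 groups did not overlap: neuron libraries were highest and oligodendrocyte libraries lowest. The log2 fold change was 2.52 ± 0.50 for neuron over astrocyte, 4.65 ± 0.55 for neuron over oligodendrocyte (edgeR adjusted p = 2.02e-05) and 2.13 ± 0.50 for astrocyte over oligodendrocyte nuclei. Kcnd3, encoding Kv4.3, was higher in neuron nuclei too, at 165 ± 24.4 CPM, against 47.4 ± 18.5 CPM in astrocyte and 27.9 ± 4.1 CPM in oligodendrocyte nuclei (SD, n = 4 each).

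Among the Kv7 genes, whose channels carry the M-current that damps repetitive firing, Kcnq3 and Kcnq5 parted. Kcnq3 was lower in sorted neuron nuclei, at 65.2, 94.8, 123 and 75.9 CPM, and in sorted astrocyte nuclei, at 40.9, 64.8, 67.0 and 29.6 CPM, than in sorted oligodendrocyte nuclei, at 159, 145, 208 and 288 CPM. The groups did not overlap between neuron and oligodendrocyte nuclei. For Kcnq3 the log2 fold change of neuron over oligodendrocyte nuclei was -1.66 ± 0.44 (edgeR adjusted p = 0.0122), and with library sizes alone as the scaling it was -1.15 and did not pass (edgeR adjusted p = 0.0619). Kcnq5 was enriched in neuron nuclei, at 183 ± 46.1 CPM, against 18.9 ± 15.1 CPM in astrocyte and 16.0 ± 10.4 CPM in oligodendrocyte nuclei (SD, n = 4 each).

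Of the 6 ether-a-go-go-type (Kcnh) genes tested, 3 passed in each neuron comparison. Kcnh4 and Kcnh7 were enriched in neuron nuclei. Kcnh1 passed against astrocyte nuclei. The Kcnh1 and Kcnh7 calls over astrocyte nuclei were each lost in 7 leave-one-out fits. Among oligodendrocyte libraries Kcnh1 stood at 251 CPM in replicate 36, against 15.3 to 26.5 CPM in the other 3. The silent subunits Kcnf1, Kcng3 and Kcnv1, which form no channel alone and modify Kv2 or Kv3 channels, were enriched in neuron nuclei, the Kcng3 call over astrocyte nuclei being lost in 8 leave-one-out fits and that of Kcnf1 in 4. Kcnv1 had 19.6, 56.0, 49.8 and 32.4 CPM in sorted neuron nuclei and at most 6.82 CPM in any sorted glial library. Kcns3, another silent subunit, held 54 counts in neuron nuclei beside 3 in oligodendrocyte nuclei, a CPM ratio of 16.6 with an exact 95% counting interval of 5.40 to 83.2, a call lost in 4 leave-one-out fits. It was higher in astrocyte than in oligodendrocyte nuclei too, with 46 counts beside 3 and a log2 fold change of 4.17 ± 1.13, and this call passed in all 12 leave-one-out fits. Between neuron and astrocyte nuclei it did not pass (-0.67 ± 0.87).

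Of the 7 Kcnab and Kcnip genes tested, which encode cytosolic auxiliary subunits, Kcnip3 and Kcnab1 passed between sorted types. Kcnip3 encodes a calcium-binding partner of Kv4 channels that has also been described as a transcriptional repressor. It was higher in astrocyte nuclei, at 159, 305, 238 and 383 CPM, than in oligodendrocyte nuclei, at 24.9, 14.8, 28.7 and 1.25 CPM, and it was higher in neuron than in oligodendrocyte nuclei too. The other Kcnip genes passed in none of the 3 sorted comparisons, and of the Kv1 beta subunits only Kcnab1 passed, in neuron over astrocyte nuclei. That call did not hold without sorted neuron replicate 2, where the edgeR adjusted p was 0.0594, nor in any other fit that left out 1 neuron or astrocyte library.

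Kcne2 encodes a small membrane subunit known from the choroid plexus. It had 0, 0, 0 and 0.381 CPM in sorted neuron nuclei, 5.54, 14.4, 59.5 and 22.8 CPM in sorted astrocyte nuclei and 0.341, 1.43, 1.86 and 0 CPM in sorted oligodendrocyte nuclei. The astrocyte libraries did not overlap the others. The neuron value rested on 1 count beside 132 in astrocyte nuclei, a ratio of 161 in favour of astrocyte nuclei with an exact 95% counting interval of 28.3 to 6394. The 6 choroid plexus and ependymal markers summed to 92.6 to 143 CPM in sorted neuron, 604 to 7086 CPM in sorted astrocyte and 44.9 to 168 CPM in sorted oligodendrocyte nuclei. None of these markers was at 0 in a sorted group, and their part in the Kcne2 result was not tested. The related Kcne1l, on the X chromosome, had at most 1.53 CPM in sorted neuron nuclei, 8.53, 17.6, 14.9 and 14.2 CPM in sorted astrocyte nuclei and at most 3.41 CPM in sorted oligodendrocyte nuclei.

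Among calcium-activated channels, the families split. Kcnma1, the pore of the large-conductance BK channel, averaged 269.7 ± 55.8 CPM in sorted neuron nuclei, 96.9 ± 39.5 CPM in sorted astrocyte and 60.8 ± 36.2 CPM in sorted oligodendrocyte nuclei, and passed against oligodendrocyte nuclei alone. Its brain beta subunit Kcnmb4 had 70.1, 55.9, 36.1 and 35.5 CPM in sorted neuron nuclei and at most 3.51 CPM in sorted astrocyte and 5.46 CPM in sorted oligodendrocyte nuclei. The groups did not overlap, and the log2 fold change was 4.44 ± 0.81 over astrocyte (edgeR adjusted p = 0.00084) and 3.90 ± 0.74 over oligodendrocyte nuclei.

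The small-conductance genes Kcnn2 and Kcnn3, whose SK2 and SK3 channels give the afterhyperpolarization of neurons, were enriched in astrocyte nuclei. Kcnn2 had 75.7, 154.5, 101 and 92.7 CPM in sorted neuron nuclei, 391, 703, 424 and 457 CPM in sorted astrocyte nuclei and 14.7, 21.0, 26.1 and 0.624 CPM in sorted oligodendrocyte nuclei. Kcnn3 (chromosome 3, 89520164 to 89675132) had 18.1, 16.7, 14.5 and 9.92 CPM in sorted neuron nuclei, 89.9, 70.7, 81.9 and 81.8 CPM in sorted astrocyte nuclei and 2.39, 2.86, 5.22 and 0.624 CPM in sorted oligodendrocyte nuclei. For both genes the order of astrocyte, neuron and oligodendrocyte held with no overlap. The log2 fold change of Kcnn3 was -2.62 ± 0.51 for neuron over astrocyte (edgeR adjusted p = 0.00142) and 4.66 ± 0.57 for astrocyte over oligodendrocyte nuclei (edgeR adjusted p = 2.88e-05). Neuron libraries passed above oligodendrocyte libraries for both.

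The sodium-activated channels Kcnt1 and Kcnt2, known as Slack and Slick, were higher in neuron than in oligodendrocyte nuclei. Kcnt1 was at 634, 276, 251 and 211 CPM in sorted neuron nuclei and 262, 122, 127 and 107 CPM in sorted astrocyte nuclei, which overlapped, and Kcnt2 was enriched in neuron nuclei at 90.3 ± 23.1 CPM. In sorted oligodendrocyte nuclei Kcnt1 had 14.0, 35.8, 41.3 and 0 CPM. Its step of astrocyte over oligodendrocyte nuclei passed, but not without sorted astrocyte replicate 6 (edgeR adjusted p = 0.0928) or sorted oligodendrocyte replicate 10 (edgeR adjusted p = 0.0561).

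The inward rectifiers, with Kcnj10, Kcnj13 and Kcnj8 left out, held 1 astrocyte-enriched gene and 6 neuron-enriched ones among 8 tested. Kcnj16 encodes Kir5.1, which in astrocytes joins Kir4.1. Its gene lies on chromosome 11 at 110968033 to 111027968. It had 5.65, 17.1, 6.23 and 27.5 CPM in sorted neuron nuclei, 397, 796, 528 and 814 CPM in sorted astrocyte nuclei and 16.4, 5.72, 53.3 and 0 CPM in sorted oligodendrocyte nuclei. Every astrocyte library lay above all the others. The log2 fold change was -5.67 ± 0.95 for neuron over astrocyte (edgeR adjusted p = 0.000435) and 4.98 ± 0.92 for astrocyte over oligodendrocyte nuclei (edgeR adjusted p = 0.000893), and 6.21 without sorted oligodendrocyte replicate 34.

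The G-protein-gated rectifiers, which open when inhibitory transmitters bind their receptors, were enriched in neuron nuclei. Kcnj3 (GIRK1, chromosome 2, 55435970 to 55598145) had 887, 775, 547 and 584 CPM in sorted neuron nuclei, against 205, 140.5, 201 and 167 CPM in sorted astrocyte and 40.6, 37.2, 73.0 and 29.3 CPM in sorted oligodendrocyte nuclei. Kcnj6 (GIRK2) had 114, 98.1, 88.4 and 82.8 CPM in sorted neuron nuclei, against 2.56, 1.95, 0 and 3.70 CPM in sorted astrocyte and 11.9, 6.20, 6.33 and 0 CPM in sorted oligodendrocyte nuclei. Kcnj9 (GIRK3) had 108, 71.0, 74.7 and 59.1 CPM in sorted neuron nuclei, against at most 6.82 CPM in sorted astrocyte and 14.5 CPM in sorted oligodendrocyte nuclei. None of the 3 genes overlapped between neuron and glial libraries. The log2 fold change over astrocyte nuclei was 1.81 ± 0.35 for Kcnj3, 4.96 ± 0.79 for Kcnj6 (edgeR adjusted p = 0.000298) and 4.22 ± 0.74 for Kcnj9 (edgeR adjusted p = 0.000672). Of the exonic bases of Kcnj3, 31.1% overlap the antisense gene Gm26794, and their reads cannot be told apart either.

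Kcnj2, encoding the classical inward rectifier Kir2.1, was lower in astrocyte nuclei than in both other types. It had 1.28, 1.56, 0 and 4.01 CPM in sorted astrocyte nuclei, against 54.2, 42.0, 77.9 and 0 CPM in sorted oligodendrocyte nuclei, where the 0 of replicate 36 overlapped. Sorted neuron nuclei had 15.4, 37.2, 63.1 and 51.1 CPM, above all astrocyte libraries. Its log2 fold change for astrocyte over oligodendrocyte nuclei was -4.30 ± 1.03 (edgeR adjusted p = 0.00703), and -4.66 without replicate 36. Kcnj12, encoding Kir2.2, was enriched in neuron nuclei at 381, 135, 117 and 113 CPM, against at most 35.2 CPM in sorted astrocyte and 17.2 CPM in sorted oligodendrocyte nuclei. Its log2 fold change was 3.65 over astrocyte and 3.83 over oligodendrocyte nuclei, 3.02 and 3.19 without sorted neuron replicate 2, and 5.46 over astrocyte nuclei without sorted astrocyte replicate 32. Kcnj11, the pore of the ATP-sensitive channel, and Kcnj4 were enriched in neuron nuclei, at 13.5 ± 8.5 and 12.2 ± 8.0 CPM. The Kcnj11 call over astrocyte nuclei was lost in 3 leave-one-out fits, those without sorted neuron replicate 2 or sorted astrocyte replicates 8 or 32. The Kcnj4 call was lost in 6 over astrocyte and 2 over oligodendrocyte nuclei.

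Two-pore-domain (Kcnk) genes held a pair of close relatives that parted. Kcnk12 and Kcnk13 encode THIK-2 and THIK-1, sister channels that can assemble with each other. Kcnk12 had 42.2, 7.52, 14.5 and 6.48 CPM in sorted neuron nuclei, against 0.853, 0, 0 and 1.23 CPM in sorted astrocyte and 0, 0.477, 0.373 and 0 CPM in sorted oligodendrocyte nuclei. Kcnk13 had 6.03, 7.52, 0 and 3.05 CPM in sorted neuron, 0, 6.25, 0 and 1.23 CPM in sorted astrocyte and 129, 104, 131 and 87.4 CPM in sorted oligodendrocyte nuclei. Neither gene's enriched group overlapped the others.

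For Kcnk12 the log2 fold change over astrocyte nuclei was 4.38 ± 0.97 (edgeR adjusted p = 0.00367), and 3.45 without sorted neuron replicate 2 or 5.15 without sorted astrocyte replicate 32. Oligodendrocyte nuclei held 2 counts of it beside 182 in neuron nuclei, a ratio of 84.1 with an exact 95% counting interval of 23.0 to 699.8. For Kcnk13 the log2 fold change was -5.13 ± 0.94 for neuron over oligodendrocyte (edgeR adjusted p = 0.00096) and -5.76 ± 1.03 for astrocyte over oligodendrocyte nuclei (edgeR adjusted p = 0.00071), and -7.51 without sorted astrocyte replicate 8. THIK-1 is also known from microglia, and 6 microglia markers summed to 18.3 to 46.8 CPM in sorted neuron, 27.2 to 40.6 CPM in sorted astrocyte and 2.50 to 92.0 CPM in sorted oligodendrocyte nuclei. In presort nuclei of the oligodendrocyte line they summed to 86.1 to 401 CPM, where Kcnk13 was at most 12.7 CPM. None of the 6 markers was at 0 in a sorted group, and their part in the Kcnk13 result was not tested.

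The promoters of this pair are printed because the sister genes were enriched in different cell types. They are RefSeq sequences (GRCm38.p6) from 250 bases before to 50 bases after the gene's start, on the strand of the gene, with the GC box GGGCGG or its reverse complement CCGCCC in capitals.
Kcnk12 (chr17:87797945-87798244, minus strand): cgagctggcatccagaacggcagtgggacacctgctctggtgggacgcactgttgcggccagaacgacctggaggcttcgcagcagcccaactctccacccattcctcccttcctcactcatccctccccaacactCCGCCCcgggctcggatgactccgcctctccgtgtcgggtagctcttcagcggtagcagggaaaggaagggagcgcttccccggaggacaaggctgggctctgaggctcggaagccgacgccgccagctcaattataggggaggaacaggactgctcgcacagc
Kcnk13 (chr12:99964249-99964548, plus strand): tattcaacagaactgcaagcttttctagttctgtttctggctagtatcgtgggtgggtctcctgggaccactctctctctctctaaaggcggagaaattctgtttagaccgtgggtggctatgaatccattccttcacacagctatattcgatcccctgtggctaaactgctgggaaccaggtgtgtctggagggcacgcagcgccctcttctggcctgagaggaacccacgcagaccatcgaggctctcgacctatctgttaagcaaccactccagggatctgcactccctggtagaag
Kcnk12 holds 1 GC box and 20 CpG dinucleotides, and Kcnk13 holds no GC box and 9 CpG dinucleotides, beside a median of 7 CpG over 27025 genes. A GC box was found in 53.8% of the 65 potassium channel genes with a listed promoter and in 35.9% of all genes with one. Among enriched genes it was found in 12 of 19 neuron-enriched, 2 of 4 astrocyte-enriched and 0 of 2 oligodendrocyte-enriched genes. A match describes these letters alone.

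Kcnk3 and Kcnk9, encoding the acid-sensitive channels TASK-1 and TASK-3, and Kcnk10, encoding the mechanosensitive TREK-2, were enriched in neuron nuclei. The Kcnk9 call over oligodendrocyte nuclei, and with it its enrichment, did not hold without sorted neuron replicate 2 (edgeR adjusted p = 0.0599) or sorted oligodendrocyte replicate 10 (edgeR adjusted p = 0.0585). Kcnk10 had 53.9, 55.5, 36.9 and 52.3 CPM in sorted neuron nuclei and at most 4.68 CPM in sorted astrocyte and 3.34 CPM in sorted oligodendrocyte nuclei, with no overlap. Kcnk3 had 153 CPM in sorted neuron replicate 2 and 29.2 to 43.1 CPM in the other 3 neuron libraries, and its log2 fold change over astrocyte nuclei was 4.11 with that replicate and 3.22 without it. Kcnk1, encoding TWIK-1, was high in both sorted neuron nuclei, at 341, 166, 228 and 185 CPM, and sorted astrocyte nuclei, at 147, 314, 349.8 and 333 CPM. These 2 groups overlapped and did not pass against each other. In sorted oligodendrocyte nuclei Kcnk1 had 9.55, 4.29, 20.5 and 2.50 CPM, and the log2 fold change over them was 4.33 ± 0.57 for neuron (edgeR adjusted p = 5.11e-05) and 4.78 ± 0.58 for astrocyte nuclei (edgeR adjusted p = 2.6e-05).

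**Figure D3:**
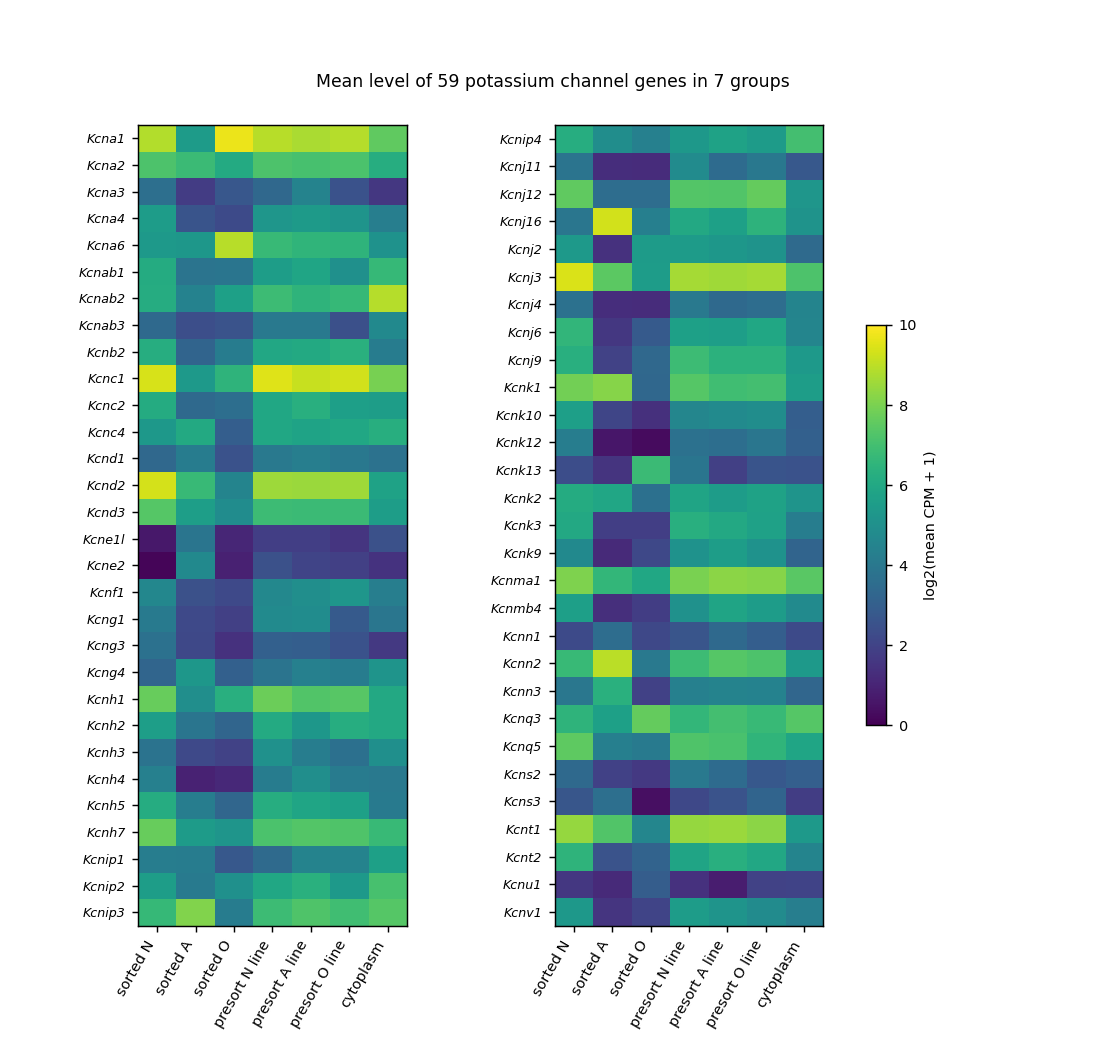
Colour gives log2(mean CPM + 1) for 59 of the 63 tested potassium channel genes (rows, by subfamily) in the 3 sorted, 3 presort and 1 cytoplasmic groups (columns). Across each row, Kcnj16 and Kcnn2 are brightest in the sorted astrocyte column, at means of 634 and 494 CPM, and Kcna1 and Kcna6 in the sorted oligodendrocyte column, at 843 and 487 CPM.

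Genes were ranked by level per kilobase of annotated exon, since longer genes collect more reads. The subfamily shares given above are of summed CPM and are not scaled for length. The sources used here do not give the regions that were counted, so this scale is approximate. In sorted neuron nuclei the highest levels were Kcnj3 at 134 ± 30.8 and Kcnd2 at 128 ± 31.1 CPM per kilobase (SD, n = 4), whose ranges overlapped, followed by Kcnk1 at 103 ± 35.1. In sorted astrocyte nuclei Kcnj16 led at 161 ± 52.0, with Kcnk1 at 128 ± 42.1 overlapping it. In sorted oligodendrocyte nuclei Kcna1 led at 176 ± 55.8, followed by Kcna6 at 81.8 ± 22.1 and Kcnk13 at 36.3 ± 6.72 CPM per kilobase. The ranges of Kcna1 and Kcna6 overlapped, but within each sorted oligodendrocyte library Kcna1 was above Kcna6. In cytoplasm the auxiliary subunit Kcnab2 had the highest mean, 84.0 ± 67.3 CPM per kilobase (SD, n = 2), but its 2 values, 36.4 and 132, lay apart. In replicate 1 it was below Kcnip4 at 56.1 and Kcna1 at 40.8 CPM per kilobase.

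Genes with the most similar pattern were sought for the enriched channel gene of each type with the highest mean CPM, by Pearson correlation of mean log2 CPM over the 6 nuclear groups, with no test. For Kcnj3 the nearest were Zfand2b, Cnst, Gcnt2, Synj2bp and Higd2a, for Kcnj16 they were Tnc, Il17rd, Gdf11, Aqp4 and Sparcl1, and for Kcna1 they were Slco3a1, Jakmip3, Fkbp1a, Myo9a and Clip3. All 15 correlations were at least 0.9918 over 6 groups. They were picked as the highest among all genes tested, so values near 1 were built into the search.

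A list of 31 genes that work with potassium channels was read beside them, 27 of them tested between sorted types. In neuron over astrocyte nuclei 15 were higher and 2 lower, beside 8.02% and 11.4% of all genes. In neuron over oligodendrocyte nuclei 13 were higher and 4 lower, beside 10.7% and 12.4%, and in astrocyte over oligodendrocyte nuclei 2 were higher and 7 lower, beside 9.62% and 7.49%. Higher in neuron nuclei than in both glial types were Dpp6, an auxiliary subunit of Kv4 channels, at 709 ± 206 CPM against 91.4 ± 25.4 CPM in astrocyte nuclei, and Abcc8, the sulfonylurea receptor that pairs with Kcnj11, at 63.4 ± 39.1 CPM against 1.42 ± 1.13 CPM. Cntnap2, which places Kv1 channels beside the node, was also higher in neuron nuclei, with a log2 fold change of 3.5 over astrocyte and 3.15 over oligodendrocyte nuclei.

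Other partners were higher in oligodendrocyte nuclei, as Kcna1 and Kcna6 were. Cntn2, a glycoprotein found on both axon and glia beside the node, averaged 265 ± 166 CPM in sorted neuron nuclei, 20.5 ± 1.87 CPM in sorted astrocyte and 1215 ± 177 CPM in sorted oligodendrocyte nuclei. Lgi3, a secreted ligand of ADAM22-family receptors, averaged 126 ± 81.6 CPM in sorted neuron and 527 ± 60.1 CPM in sorted oligodendrocyte nuclei. Hcn2, a pacemaker channel, averaged 8.56 ± 7.54 CPM in sorted neuron, 2.26 ± 1.99 CPM in sorted astrocyte and 92.4 ± 8.32 CPM in sorted oligodendrocyte nuclei. All 3 passed against oligodendrocyte nuclei in both comparisons. Rest, a repressor of many neuronal genes, was lower in neuron nuclei, at 2.71 ± 1.56 CPM against 42.3 ± 12.6 CPM in astrocyte and 16.1 ± 11.8 CPM in oligodendrocyte nuclei.

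Sorted nuclei were next compared with presort nuclei of the same line, which asks what the sort gained or lost. The design text gives the presort libraries as controls from each mouse, but the labels do not state which libraries share a mouse. In the neuron line few potassium channel genes passed, 2 higher and 2 lower of 57 tested, beside 1.27% and 5.1% of 11024 genes. Kcnd2 had 897, 621, 563 and 561 CPM in sorted neuron nuclei, against 426, 369, 321 and 379 CPM in presort nuclei (log2 fold change 0.94 ± 0.23, edgeR adjusted p = 0.0223). Kcnj3 had 547 to 887 CPM in sorted neuron nuclei, against 317 to 469 CPM in presort nuclei, with no overlap either (0.91 ± 0.23, edgeR adjusted p = 0.029). Kcna6 was lower in sorted neuron nuclei, at 29.4 to 56.4 CPM, against 91.4 to 115 CPM in presort nuclei (-1.26 ± 0.28, edgeR adjusted p = 0.0128).

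Kcnj16 was lower in sorted neuron nuclei at 5.65 to 27.5 CPM, against 19.6 to 90.7 CPM in presort nuclei, an overlap (-2.06 ± 0.55, edgeR adjusted p = 0.0344). These few calls depended on single libraries, and 0 of the 4 passed in every leave-one-out fit. Without presort neuron replicate 25, 0 genes passed in either direction, and without sorted neuron replicate 2, 3 were higher and 7 lower. With library sizes alone as the scaling, 1 was higher and 3 lower. Without sorted neuron replicate 4, 1 was higher and 1 lower; without presort replicate 3, 1 was higher. Without sorted replicate 26 or presort replicate 1, 1 was lower, and without presort replicate 27, 0 were lower. With presort and sorted libraries of consecutive numbers paired as a block, these 4 passed with 4 others, 5 higher and 3 lower in all, beside 4.95% and 8.2% of all genes.

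In the astrocyte line 8 genes were higher and 36 lower of 51 tested, beside 13.7% and 15.2% of 11026 genes, with a median log2 fold change of -1.76 against -0.03 over all genes. Among the 8 higher were Kcnj16, Kcne1l, Kcnn3, Kcnn2, Kcnk1, Kcng4 and Kcnip3. Kcnj16 had 397 to 814 CPM in sorted astrocyte nuclei, against 20.3, 91.0, 64.1 and 25.2 CPM in presort nuclei (3.78 ± 0.38, edgeR adjusted p = 3.41e-07), and Kcnn3 had 70.7 to 89.9 CPM, against 20.3, 39.0, 13.1 and 12.6 CPM in presort nuclei (2.36 ± 0.40, edgeR adjusted p = 9.46e-05). Neither gene overlapped. Kcne1l rose by 2.80 ± 0.64 on the log2 scale, but presort astrocyte libraries held only 0, 1, 6 and 1 counts of it. It was tested in 4 leave-one-out fits and passed in each.

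Among the lower genes, the largest changes were in Kcnmb4 (log2 fold change -4.42 ± 0.56), Kcnk9 (-4.34 ± 0.56), Kcnj9 (-4.26 ± 0.45) and Kcnh4 (-4.06 ± 0.66). Kcnk9 had 0.853, 0.781, 0 and 3.40 CPM in sorted astrocyte nuclei, against 54.1, 60.7, 30.2 and 41.9 CPM in presort nuclei. Without presort astrocyte replicate 29, the deep library, 22 genes were lower and 5 higher. With any of sorted replicates 6, 8 or 32 left out, 5 were higher. In every leave-one-out fit that tested the gene, 37 of the 44 calls passed.

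In the oligodendrocyte line 2 genes were higher and 12 lower of 44 tested, beside 5.12% and 3.24% of 9520 genes, with a median log2 fold change of -2.10 against -0.07. Kcnk13 had 129, 104, 131 and 87.4 CPM in sorted oligodendrocyte nuclei, against 12.7, 0, 7.66 and 0 CPM in presort nuclei (4.88 ± 0.85, edgeR adjusted p = 0.0063). Kcna6 had 315 to 636 CPM, against 57.4, 108, 76.6 and 114 CPM in presort nuclei (2.97 ± 0.41, edgeR adjusted p = 0.00189). Neither gene overlapped. Kcna1 and Kcnq3 did not pass in this comparison, with log2 fold changes of 1.30 ± 0.38 and 1.62 ± 0.54.

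The largest decreases in this line were in Kcnj12 (log2 fold change -3.83 ± 0.85), Kcnd2 (-3.78 ± 0.61), Kcnk3 (-3.78 ± 0.78) and Kcnmb4 (-3.70 ± 0.83). Of these calls, that of Kcnd2 passed in all 8 leave-one-out fits, that of Kcnj12 was lost in 4 of 8, that of Kcnk3 in 3 of 8 and that of Kcnmb4 in all 4 that tested it. Kcnd2 had 2.50 to 40.6 CPM in sorted oligodendrocyte nuclei, against 328, 343, 379 and 487 CPM in presort nuclei. Without sorted oligodendrocyte replicate 36, 5 genes were higher and 26 lower. Without sorted replicate 10 or 12 or presort replicate 9, 5 were lower, without presort replicate 11, 3 were lower, and without presort replicate 33 or 35, 2 were lower. In every leave-one-out fit, 4 of the 14 calls passed. DESeq2 on the same libraries found 25 lower. With presort and sorted libraries of consecutive numbers paired as a block, 2 were higher and 4 lower, beside 2.33% and 0.62% of all genes, and 5 of the 14 calls passed, Kcnj12, Kcnk3 and Kcnmb4 not among them.

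**Figure D4:**
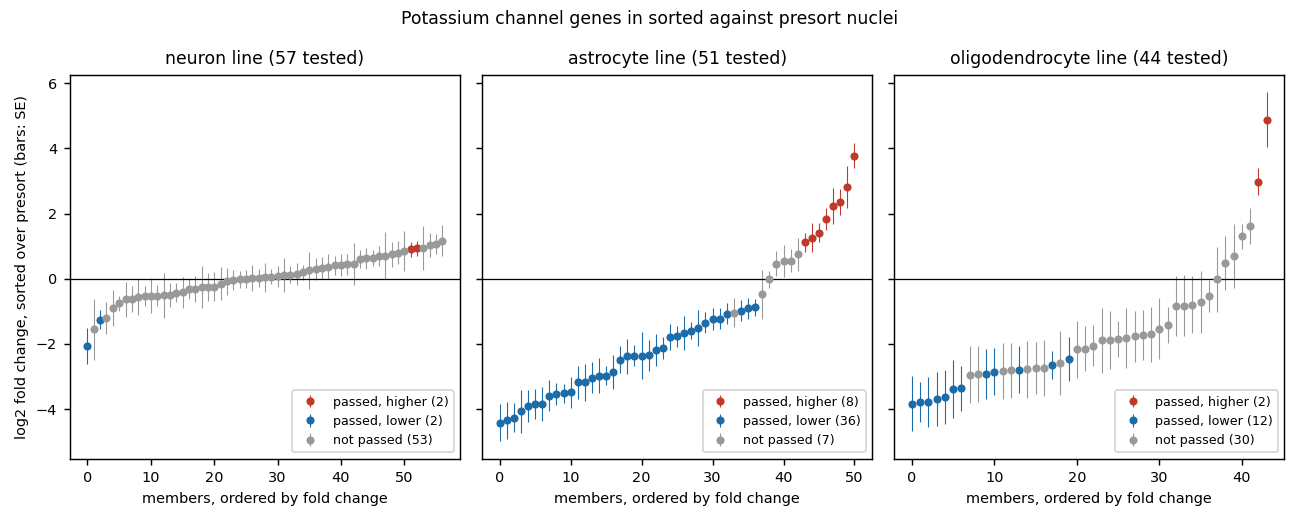
Points give the log2 fold change of sorted over presort nuclei for each tested potassium channel gene, ordered by value, in the neuron, astrocyte and oligodendrocyte lines, with SE as bars and colour for the edgeR call. The neuron line has a median of 0.05, with 2 genes higher and 2 lower, and values such as -1.26 for Kcna6 and 1.06 for Kcnj6. In the astrocyte line 36 of 51 genes are lower.

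Presort nuclei of the 3 lines were compared in a joint test. Of 40 potassium channel genes tested with edgeR, 0 passed, and 0 had an unadjusted p under 0.05. Of all 6049 genes tested 0% passed, and 205 genes had an unadjusted p under 0.05. Kcnip2, with the smallest p among the channel genes (unadjusted p = 0.0718), averaged 61.6 ± 18.6, 80.6 ± 27.2 and 40.7 ± 6.1 CPM in presort nuclei of the neuron, astrocyte and oligodendrocyte lines.

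Presort nuclei were compared with cytoplasm to ask which transcripts were higher in nuclear RNA. Cell type markers differed between the fractions too. Granule cell markers summed to 1973 to 6586 CPM in presort nuclei and 704 to 815 CPM in cytoplasm. Oligodendrocyte precursor markers summed to 453 to 640 and 25.8 to 71.8 CPM. Neuron markers went the other way, at 2158 to 3773 and 6847 to 14029 CPM. The part of cell makeup in the results below was not tested. Of 45 potassium channel genes tested, 13 were higher in nuclei and 7 lower, beside 20.6% and 29.8% of 7728 genes, with a median log2 fold change of 0.41 against -0.10. Among those higher were pore-forming genes of most families: Kcnt1, Kcnd2, Kcnj12, Kcnk9, Kcnb2, Kcnh5, Kcnk3, Kcnj2, Kcnn2, Kcnk1, Kcnh1, Kcna6 and Kcnj3. All 7 lower genes but Kcnq3 were cytosolic auxiliary subunits: Kcnab1, Kcnab2 and the 4 Kcnip genes. In total 6 of 6 tested Kcnab and Kcnip genes were lower in nuclei, and no pore-forming gene other than Kcnq3 was. The scaling bears on this split, since library sizes alone moved the median of all genes by 0.55 on the log2 scale and gave 23 genes higher and 4 lower. With that scaling all 6 Kcnab and Kcnip genes still had negative log2 fold changes, and Kcnip1, Kcnip3 and Kcnq3 did not pass. Cytoplasm came from the astrocyte and oligodendrocyte lines alone, and against presort nuclei of those lines 6 genes were higher and 6 lower.

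Kcnt1 had 217 to 446 CPM in the 12 presort libraries, with a median of 322 CPM, against 7.62 and 74.6 CPM in cytoplasm (2.54 ± 0.53, edgeR adjusted p = 0.000489). Kcnd2 had 289 to 487 CPM in presort nuclei, with a median of 374 CPM, against 71.1 and 35 CPM in cytoplasm (2.18 ± 0.35, edgeR adjusted p = 2.8e-05). Neither gene overlapped, and both passed with either cytoplasmic library left out. Of the 20 calls, 11 were lost without cytoplasm replicate 1 and 4 without replicate 2, among them those of Kcnb2 in both fits, Kcna6, Kcnh1, Kcnk1, Kcnk3, Kcnk9 and Kcnn2 in the first, and Kcnj2 and Kcnj3 in the second.

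Kcnab2, which encodes a Kv1 beta subunit with an oxidoreductase fold, averaged 103 ± 43.8 CPM in presort nuclei (SD, n = 12), against 203 and 734 CPM in cytoplasm (-2.67 ± 0.42, edgeR adjusted p = 2.49e-05). The groups did not overlap, and the log2 fold change was -3.16 without cytoplasm replicate 1 and -1.65 without replicate 2. Kcnip4 averaged 45.6 ± 15.2 CPM in presort nuclei, against 204 and 55.1 CPM in cytoplasm (-2.16 ± 0.38, edgeR adjusted p = 7.75e-05), and Kcnab1 averaged 45.2 ± 25 CPM, against 168 and 37.1 CPM (-1.84 ± 0.44, edgeR adjusted p = 0.00149). Both overlapped, and without cytoplasm replicate 1 neither passed, at -0.61 for Kcnip4 and -0.05 for Kcnab1. Kcnip1, at 17.6 ± 19.4 CPM in presort nuclei and 54.9 and 45.8 CPM in cytoplasm, overlapped too, and it did not pass without cytoplasm replicate 1 (edgeR adjusted p = 0.0593).

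Kcnip2 overlapped as well and passed with either cytoplasmic library left out. Kcnq3 had 72.8 to 149 CPM in presort nuclei, with a median of 107 CPM, and 257 and 72.6 CPM in cytoplasm, either side of them, and its log2 fold change of -1.22 became 0.28 without cytoplasm replicate 1. Kcnip3 had 74.98 to 206 CPM in presort nuclei, with a median of 128 CPM, and 71.3 and 256 CPM in cytoplasm, and its value of -0.84 became 0.16 without cytoplasm replicate 2. Among the partners, 8 of 23 tested were higher in nuclei and 5 lower, beside 20.6% and 29.8% of all genes.

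**Figure D5:**
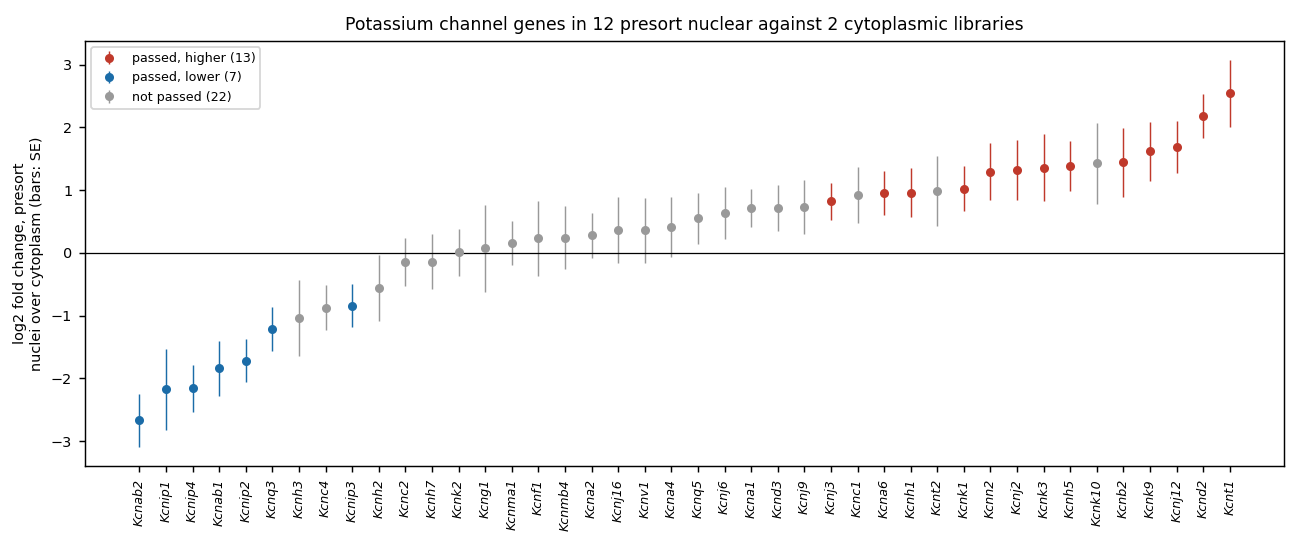
Points give the log2 fold change of 12 presort nuclear libraries over 2 cytoplasmic libraries for 42 of the 45 tested potassium channel genes, ordered by value, with SE as bars and colour for the edgeR call. Kcnab and Kcnip genes and Kcnq3 lie toward the low end, with Kcnab2 at -2.67, Kcnq3 at -1.22 and Kcnip3 at -0.84, and Kcnd2 and Kcnt1 lie at the high end, at 2.18 and 2.54.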

How the data were processed

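Nuclear and cytoplasmic RNA was amplified with NuGEN Ovation RNA-Seq V2, which keeps no strand, per the labels' protocols. The submitters' processing notes list STAR, Bowtie2, Trimmomatic, edgeR and bedtools. The sources used here do not give the genome build, the annotation or the regions counted. The deposited values are raw counts per gene for 26 libraries, from the authors, with no normalization. CPM was computed here by scaling each library's counts to a common total. Symbols were matched to GENCODE M21 (GRCm38), which held 26495 of 27502 rows and gave types, exons and coordinates.

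Tests used edgeR 4.0.16 (quasi-likelihood, TMM scaling, default low-count filter with a minimum count of 10) in R 4.3.3, with Benjamini-Hochberg adjustment over all genes tested at a threshold of 0.05. The 12 sorted libraries entered one fit, and each other comparison had its own. DESeq2 1.42.0, other scalings, no filter, each sex alone and leaving out each library were alternatives. Titles number presort and sorted libraries of a line consecutively, and the design text gives presort RNA from each mouse, but no label states the pairs. A fit with consecutive numbers as a block was added after seeing the data. As a check, deviations from the group means over all genes tested were correlated within each pair. The r was over 0.1 in 4 of 4 neuron, 1 of 4 astrocyte and 2 of 4 oligodendrocyte pairs, and at most 0.32. Between libraries of different pairs r reached 0.21 in the neuron line and 0.11 in the astrocyte line. Within the pair it was highest in 8 of 12 cases, so the check does not settle the pairing. The script was tested on simulated counts. Members and lists were chosen with earlier results of these data known. Genes given in full were the 4 with the largest fold change per direction and comparison with at least 10 CPM in the higher group, and up to 8 enriched per type; others were named for their family. Total counts were 134357 to 4461568 per library, and in the shallowest library 3 counts equal 22.3 CPM. Counting intervals are exact at 95% and cover counting error only. Promoters came from RefSeq (GRCm38.p6), matched for 65 of 90 genes. Some genes that entered the tests and counts are not reported here by name.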

Additional observations from a re-analysis of the deposited data

Results flagged for a closer look

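In groups of 4 libraries, 21 of 180 combinations had 1 library far from the other 3 by Dixon's criterion. Each combination was a group with a gene or with the summed CPM. For normal values of equal precision the criterion flags about 1 in 20. These CPM come from libraries of unequal depth and in part from few counts, so that rate is no yardstick here. Sorted neuron replicate 2 was high for Kcnj12 (381.3 CPM, others 113 to 135 CPM), Kcnk3 (153 CPM, others 29.2 to 43.1 CPM) and Kcnt1 (634 CPM, others 211 to 276 CPM). Sorted neuron replicate 28 was high for Kcnip4 (80.8 CPM) and held the group's single Kcne2 count (0.381 CPM). Sorted oligodendrocyte replicate 36 was low for Kcna1 (448 CPM, others 934 to 1033 CPM) and Kcnip4 (0 CPM).

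Among sorted astrocyte libraries, the shallow replicate 30 had 0 CPM of Kcnab2 and 44.7 CPM of Kcnip1, replicate 32 had 35.2 CPM of Kcnj12 and replicate 6 had 262 CPM of Kcnt1. Among presort astrocyte libraries, replicate 5 had 149 CPM of Kcna6 and 101 CPM of Kcnmb4. Replicate 31 had 201 CPM of Kcnj12 and 41.9 CPM of Kcnk10, and the deep replicate 29 alone held Kcnk13 (10.7 CPM). In the other presort groups, Kcnab1 was high in oligodendrocyte replicate 33 (42.1 CPM), Kcnk3 in neuron replicate 1 (130 CPM) and Kcnv1 in neuron replicate 3 (88.2 CPM), while Kcne1l was at 0 CPM in neuron replicate 27.

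The 29 genes given in full, which were chosen by their fold changes in these data, were searched for opposite shifts. For 8 of them, every sorted library lay on one side of the presort libraries in one line and on the opposite side in another. The share of all genes with such a pattern was not computed. In the neuron, astrocyte and oligodendrocyte lines the log2 fold changes of sorted over presort nuclei were -1.26, -0.98 and 2.97 for Kcna6, 0.94, -1.59 and -3.78 for Kcnd2, 0.91, -0.87 and -2.65 for Kcnj3, and 1.06, -3.85 and -2.94 for Kcnj6. In the astrocyte and oligodendrocyte lines they were 1.41 and -3.36 for Kcnk1, 1.83 and -2.86 for Kcnn2, 2.36 and -2.90 for Kcnn3, and -1.23 and 1.62 for Kcnq3. Kcnn3 was not tested in the oligodendrocyte line. Its value of -2.90 is the log2 ratio of the group mean CPM, not an edgeR estimate, and lacks the TMM scaling of the others. The Kcnj6 values in the neuron and oligodendrocyte lines and the Kcnq3 value in the oligodendrocyte line did not pass. The difference between lines was not tested.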

How the results depend on the processing

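Counts of genes passed are compared with those in the report. In females alone, 0 genes passed in either direction in neuron against astrocyte or neuron against oligodendrocyte nuclei, 0 were higher and 1 lower in astrocyte against oligodendrocyte nuclei, 0 were enriched in any type, 1 was lower in the neuron line and 0 passed in the oligodendrocyte line. In males alone, 8 were lower in astrocyte against oligodendrocyte nuclei, 0 passed in the neuron line, 2 were higher and 21 lower in the astrocyte line, and 4 were higher and 29 lower in the oligodendrocyte line. DESeq2 gave 9 astrocyte-enriched genes and 25 lower in the oligodendrocyte line. With no filter on low counts, 7 were lower in neuron against oligodendrocyte nuclei and 4 higher in the neuron line. A fit of all 24 nuclear libraries gave 9 lower in astrocyte against oligodendrocyte nuclei. Presort nuclei of the 2 lines that gave cytoplasm had 6 genes higher.

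With library sizes alone, chosen after seeing the data, 2 were lower in neuron against oligodendrocyte nuclei, 2 were oligodendrocyte-enriched, 1 was higher in the neuron line, and 23 were higher and 4 lower in presort nuclei against cytoplasm. This scaling moved the median log2 fold change of all genes by 0.18, 0.31 and 0.13 in the 3 sorted comparisons in the order of the report, and by -0.13, -0.25 and -0.41 in the neuron, astrocyte and oligodendrocyte lines. Without sorted astrocyte replicate 30 and sorted oligodendrocyte replicate 36, also chosen afterwards, 11, 7 and 12 genes were lower in those 3 comparisons and 8 were astrocyte-enriched.

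Leaving out 1 library gave 5 to 11, 4 to 7 and 5 to 11 lower genes in the 3 sorted comparisons and 5 to 8 astrocyte-enriched genes. It gave 0 to 3 higher and 0 to 7 lower in the neuron line, 5 to 9 higher and 22 to 41 lower in the astrocyte line, and 2 to 5 higher and 2 to 26 lower in the oligodendrocyte line. Kcnq3 (-1.88 to 0.28) and Kcnip3 (-1.34 to 0.16) changed sign in nuclei against cytoplasm. Of the log2 fold changes of single genes under these fits, 1609 stayed past the threshold in the same direction, 208 no longer passed and 2 changed sign. Where no other value is given, the cause was not tested. A replicate block that paired presort and sorted libraries of consecutive numbers, also chosen afterwards, gave 5 higher in the neuron line and 4 lower in the oligodendrocyte line, and 1 fewer lower (Kcnh2) in the astrocyte line. No paired analysis was possible between sorted types, which share no replicate number. The 2 cytoplasmic libraries and the low presort depth limit what could be detected.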
